A study of Macaca mulatta with 12 samples.

Results

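Out-of-frame T cell receptor beta chain (TRB) rearrangements were the clonotypes whose CDR3, the stretch in which V, D and J segments meet, could not be read in a single frame from its first to its last codon. They were found by the frame-break mark that the deposited CDR3 translation carries, in the 8 libraries made after infusion, and numbered 14358 of 218161 clonotypes (6.58%). They were set beside the 200807 productive clonotypes of the same libraries, which have neither a frame break nor a stop codon. The remaining 2996 clonotypes were in frame with a stop codon. Every library came from blood mononuclear cells of 3 nontransplanted, nondiabetic rhesus macaques (Amazo, Nebula and Rocket), which were given apoptotic donor leukocytes (ADLs) from donors matched for a DRB allele, under anti-CD40 antibody 2C10R4, rapamycin, tocilizumab and etanercept. The libraries were from day -5 (2 days after the first infusion, n = 3), day -4 (3 days after it, n = 3), day 0 (Nebula, 7 days after it) and day +3 (Amazo, 2 days after the second infusion). A further 4 libraries, called baseline in the labels, entered no comparison. The labels do not give the animals' age. The study used these libraries to follow T cell clones after ADL infusion, and no treatment group without ADLs was analysed here.

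A TRB gene is assembled in the developing T cell. A D segment is first joined to a J segment, a V segment is then joined to the DJ, and bases are trimmed and added at each joint without regard to frame. Many joins therefore break the frame, and a cell that makes such a join on 1 chromosome can still survive by making a productive join on the other. An out-of-frame rearrangement codes for no receptor, so it is carried along by the T cell without being selected for binding, and it is often used as a record of the repertoire before selection. Its transcripts contain early stop codons and are known to be degraded by the cell.

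The libraries did not fall into animals as labelled. Libraries from Amazo day -5, Amazo day +3, Rocket day -5 and Rocket day -4 shared their abundant clones, as did the 3 Nebula libraries. The library labelled Amazo day -4 shared few with any other. The Morisita-Horn index of clonotype counts, which is 0 for no shared clones and 1 for the same clones at the same shares, was 0.765 to 0.977 inside these sets (9 pairs) and at most 0.0116 between them (19 pairs). The sets are called repertoire 1 (4 libraries), repertoire 2 (3 libraries) and repertoire 3 (1 library), and the repertoire was the replicate in every comparison of rearrangements. Repertoires 1, 2 and 3 held 7386, 4658 and 1816 distinct out-of-frame CDR3 sequences. The labels give the libraries of a repertoire different days or animal names, but these libraries share clones. Exact permutation p-values over repertoires therefore measure the spread between 3 repertoires only. The edgeR test of gene use also pools spread over the genes of these 3 repertoires, so its p-values can be far smaller without further replicates.

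The most abundant out-of-frame rearrangements show what the class looks like. For each repertoire, the CDR3 of the 3 with the highest mean share are printed 5′ to 3′, with the bases between the trimmed V end and the trimmed J start in capitals.
Repertoire 1, TRBV4-3/TRBD2/TRBJ2-7, 50 bases: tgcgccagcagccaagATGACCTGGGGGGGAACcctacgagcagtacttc
Repertoire 1, TRBV5-3/TRBD1/TRBJ1-1, 40 bases: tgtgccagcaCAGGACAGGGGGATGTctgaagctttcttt
Repertoire 1, TRBV30/TRBD1/TRBJ2-5, 41 bases: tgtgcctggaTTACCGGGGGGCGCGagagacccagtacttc
Repertoire 2, TRBV11-1/TRBD1/TRBJ1-6, 47 bases: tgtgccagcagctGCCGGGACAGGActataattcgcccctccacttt
Repertoire 2, TRBV23-1/TRBD1/TRBJ1-5, 50 bases: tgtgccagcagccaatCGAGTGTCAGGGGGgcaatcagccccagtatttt
Repertoire 2, TRBV5-6/TRBD1/TRBJ1-4, 56 bases: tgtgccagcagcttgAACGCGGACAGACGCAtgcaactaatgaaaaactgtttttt
Repertoire 3, TRBV24-1/TRBJ2-4, no D hit, 29 bases: tgtgccaccCccaaaacactcagtacttc
Repertoire 3, TRBV5-1/TRBJ2-7, no D hit, 43 bases: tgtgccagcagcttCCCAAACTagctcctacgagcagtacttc
Repertoire 3, TRBV12-2/TRBD1/TRBJ1-2, 38 bases: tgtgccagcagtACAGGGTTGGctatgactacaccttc

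The TRBV4-3/TRBJ2-7 rearrangement held 2436 counts in Rocket day -5, 926 in Rocket day -4, 728 in Amazo day -5 and 617 in Amazo day +3. These were 0.437% (95% Wilson interval 0.420 to 0.455), 0.357%, 0.209% and 0.203% of the library. It was at 0 in each of the other 4 libraries. The TRBV5-3/TRBJ1-1 rearrangement held 1435 counts in Rocket day -5 (0.258%), 467 in Rocket day -4, 657 in Amazo day -5 and 708 in Amazo day +3, plus 1 count in Nebula day 0. In Amazo day +3 it was the larger of the pair, and in the other 3 libraries of repertoire 1 the TRBV4-3 join was. The TRBV30/TRBJ2-5 join was far smaller, with 54 to 168 counts in the 4 libraries.

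In repertoire 2 the TRBV11-1/TRBJ1-6 rearrangement ranked first among out-of-frame clonotypes in all 3 libraries, with 474 counts at day -5 (0.111%), 62 at day -4 (0.145%) and 290 at day 0 (0.112%). Its 95% intervals were 0.102 to 0.122, 0.113 to 0.186 and 0.1002 to 0.126, and they overlapped. TRBV23-1/TRBJ1-5 held second place in all 3, with 350, 44 and 229 counts, and TRBV5-6/TRBJ1-4 came next, with 212, 30 and 126 counts. In repertoire 3 the largest were TRBV24-1/TRBJ2-4 with 882 counts (0.225%), TRBV5-1/TRBJ2-7 with 548 (0.140%) and TRBV12-2/TRBJ1-2 with 489 (0.125%). The first of these also had 9 counts in Amazo day -5 and 1 in Rocket day -5, and the second 7 in Amazo day -5 and 6 in Amazo day +3. For TRBV12-2/TRBJ1-2 a second V hit (another gene or allele) was listed. Intervals on counts cover counting error only, since copies made by PCR are not independent molecules.

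Abundant clonotypes thus included out-of-frame ones. The largest out-of-frame clonotype held 0.111% to 0.437% of a library, whereas the largest productive clonotype held 1.88% to 8.35%. It stood at rank 16 to 31 of its library. Of the 100 largest clonotypes of a library 2 to 6 were out of frame, and of the 1000 largest 27 to 66. Over the 8 libraries, 16 of the 281 clonotypes of at least 0.1% were out of frame (5.69%). Among all clonotypes the out-of-frame share was 6.58%, and 4.63% to 9.14% by library, so the 5.69% lies near it. In each library, the numbers among the 100 and the 1000 largest were below what its own share would give. Of the 1000 largest, 66 were out of frame in Amazo day -4 (share of all clonotypes 6.98%) and 27 in Nebula day 0 (share 6.05%). This difference was not tested. Libraries of a repertoire share clones, so the same rearrangements are counted more than once.

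Libraries held from 840 (Nebula day -4) to 2309 (Rocket day -4) out-of-frame clonotypes. Their share of clonotypes was 4.63% in Nebula day -4 (95% interval 4.33 to 4.95), 6.05% to 6.98% in 6 libraries and 9.14% in Rocket day -5 (8.71 to 9.58). Their share of counts was lower in every library, from 3.49% in Amazo day -5 to 5.09% in Nebula day -5. Nebula day -4 was also the shallowest library (42695 counts) and Rocket day -5 the deepest (556954 counts). With every library thinned to 42695 counts the clonotype share was 4.63% to 7.93%, with the same libraries at the ends.

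Day -5 and day -4 were compared within the animal names of the labels. At day -5 the thinned share of clonotypes was 5.59% for Amazo, 5.65% for Nebula and 7.93% for Rocket, and at day -4 it was 5.99%, 4.63% and 5.95%. It was lower at day -4 for Nebula and Rocket and higher for Amazo. Means of 6.39% ± 1.34 (day -5) and 5.52% ± 0.774 (day -4, SD, n = 3) differed by -0.865 percentage points (SD 1.196), which did not pass an exact sign-flip permutation test (two-sided p = 0.5, where 0.25 is the smallest it can give). For the share of counts, 4.19% ± 0.821 (day -5) and 4.27% ± 0.731 (day -4, SD, n = 3) gave an exact sign-flip p of 1. The days of Amazo belonged to different repertoires, and Amazo day -5 and Rocket day -5 to the same one (Morisita-Horn index 0.896), so that the 3 libraries of day -5 hold only 2 repertoires. Without that animal name both shares were lower at day -4 for Nebula and Rocket, by means of -1.50 and -0.679 percentage points, with an exact permutation p of 0.5, the smallest that 2 pairs allow.

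Some clonotypes inside the class could be recognised from their sequence as being of 3 kinds, which were defined after the data had been seen and are described here without a test. The first kind lay 1 inserted or deleted base away from a productive CDR3 with a higher count in the same library (2112 rows, 14.7%). The second kind had a CDR3 of 100 bases or more (523 rows, 3.64%). The third kind carried the V gene TRBV5-5 (254 rows, 1.77%). Of these rows, 2 belonged to more than 1 kind. The other 11471 rows (79.9%) belonged to none and held 89.7% to 93.0% of the out-of-frame counts of a library.

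**Figure D1:**
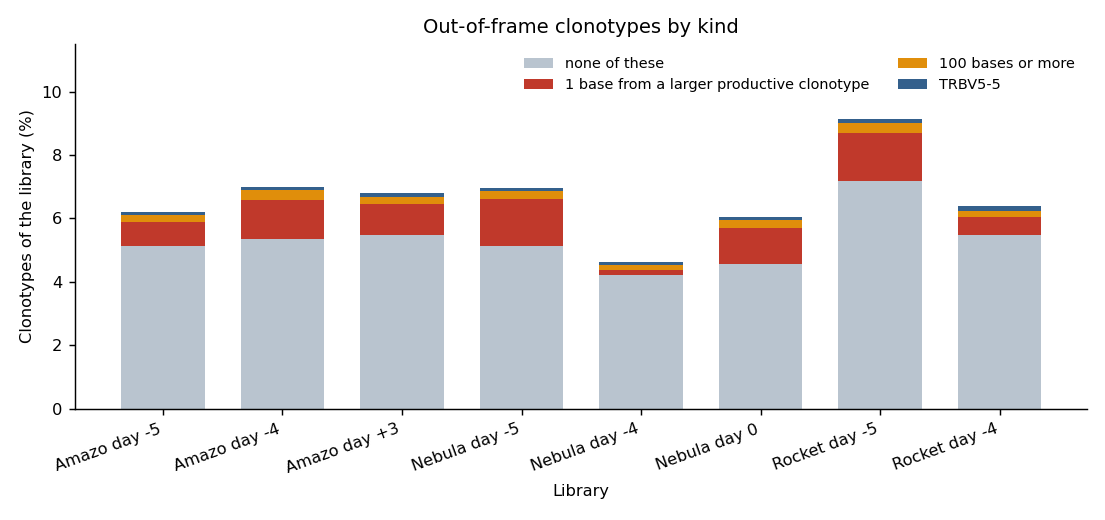
Out-of-frame clonotypes as a percent of all clonotypes of each of the 8 post-infusion libraries, split by kind (stacked bars, 2 clonotypes counted in more than 1 kind). Clonotypes of none of the 3 kinds are 4.21% to 7.18% of a library, those 1 base from a larger productive clonotype 0.171% to 1.52%.

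The first kind consisted mostly of clonotypes seen once, which its definition favours, since the productive partner must have a higher count. From 31 rows (Nebula day -4) to 445 rows (Nebula day -5) of a library were of this kind, and 73.9% to 83.9% of them had a single count. They held 2.13% to 5.85% of the out-of-frame counts. The mean over rows of the lowest base quality in the CDR3 was 29.1 to 32.2 for them, 32.5 to 36.7 for out-of-frame rows of none of the 3 kinds and 33.1 to 37.0 for productive rows. In 70.2% of the pairs the out-of-frame CDR3 was the shorter. In 85.8% the base that differed lay in a run of at least 4 equal bases of the longer member. Runs of that length held 22.3% of the bases of the productive partners. A partner could be the shorter member, so the 2 figures were not counted on the same sequences. The largest case was a TRBV24-1/TRBJ2-1 pair in repertoire 3, shown because it had the fourth-highest count of all out-of-frame clonotypes of that library.
Out of frame, 41 bases, 411 counts: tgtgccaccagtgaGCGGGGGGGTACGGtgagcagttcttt
Productive, 42 bases, 8998 counts: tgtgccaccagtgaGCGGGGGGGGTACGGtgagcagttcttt

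The pair differed only in a run of G, of 7 bases out of frame and 8 bases in the productive CDR3, and the out-of-frame member had 4.57% of the counts of its partner. Any productive CDR3 1 base away, of whatever count, was found for 5.71% to 22.9% of the out-of-frame CDR3 in the same library, for 1.26% to 2.89% in another library of the same repertoire and for at most 0.826% in a library of another repertoire. The part that base-calling or copying errors have in these rows was not tested.

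Most CDR3 of the second kind held 2 J segments. Only 5 distinct productive CDR3 had 100 bases or more, whereas 509 distinct out-of-frame CDR3 were that long, with a median of 133 bases and a maximum of 284. Of these, 428 ended in TRBJ1-3 and 59 in TRBJ2-5. In 457 of the 509 the last 12 bases of another J gene's CDR3 stood inside the sequence. In each of the 457 the inner J gene came before the final one in the numbering of the J cluster, which follows the order of the genes along the chromosome. TRBJ1-2 followed by TRBJ1-3 accounted for 260, TRBJ1-1 followed by TRBJ1-3 for 121, TRBJ2-4 followed by TRBJ2-5 for 58, TRBJ2-5 followed by TRBJ2-6 for 10 and TRBJ2-1 followed by TRBJ2-2 for 5. After TRBJ1-1 and after TRBJ1-2 the most common distance from the end of the inner CDR3 to the end of the outer was the same, 87 bases. After TRBJ2-4 it was 119 bases in all 58. Of the long CDR3 that ended in TRBJ1-3, 403 of 428 shared the same final 61 bases, and no productive CDR3 that ended in TRBJ1-3 had them. Long CDR3 that end in TRBJ1-3 were not particular to the out-of-frame class, since 1481 of the 1492 long in-frame CDR3 with a stop codon ended in TRBJ1-3 too. The shared end is shown because most long out-of-frame CDR3 carry it.
Shared end of long TRBJ1-3 CDR3, 61 bases: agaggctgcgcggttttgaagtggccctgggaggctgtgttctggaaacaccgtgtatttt

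Long and short forms of the same join occurred side by side. The largest long CDR3 that ended in TRBJ1-3 was a 127-base form of the TRBV5-3/TRBJ1-1 rearrangement printed above, and the largest that ended in TRBJ2-5 was a 148-base form of the TRBV24-1/TRBJ2-4 rearrangement. In both, the capitals run over the inner J segment and the bases after it.
TRBV5-3/TRBJ1-1/TRBJ1-3, 127 bases: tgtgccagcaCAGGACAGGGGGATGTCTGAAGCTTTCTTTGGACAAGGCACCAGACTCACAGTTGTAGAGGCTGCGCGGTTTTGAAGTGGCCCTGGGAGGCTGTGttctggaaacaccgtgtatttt
TRBV24-1/TRBJ2-4/TRBJ2-5, 148 bases: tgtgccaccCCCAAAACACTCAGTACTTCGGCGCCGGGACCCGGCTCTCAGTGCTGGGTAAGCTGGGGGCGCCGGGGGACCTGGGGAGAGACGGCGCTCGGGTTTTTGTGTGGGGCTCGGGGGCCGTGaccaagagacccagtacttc

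The 127-base form held 59 counts in Rocket day -5, 84 in Rocket day -4, 70 in Amazo day -5 and 88 in Amazo day +3, where the 40-base form held 1435, 467, 657 and 708. The 148-base form held 44 counts in Amazo day -4, where the 29-base form held 882. The short form was found in the same repertoire for 73 of the 457 long CDR3 with an inner J, of which 34 were productive, 38 out of frame and 1 in frame with a stop codon. Read to the end of the inner J, 326 of the 457 were out of frame and 131 in frame. No rhesus genome was used here, so the bases between the J segments are given without coordinates.

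Nearly all CDR3 of TRBV5-5, which make up the remaining kind, were out of frame. Of 266 rows with TRBV5-5 as first V hit, 254 were out of frame and 9 productive (95.5% out of frame), and 238 of the 254 had a length that left 1 base after division into codons (93.7%). Over 52 other V genes, each with at least 30 distinct out-of-frame CDR3 other than 1-base neighbours, that share was 33.3% to 67.8%, with a median of 50.5%, and counted in the same way it was 93.3% for TRBV5-5. CDR3 of TRBV5-5 began with tgccagcagc in 82.0% of rows, whereas those of TRBV5-1 and TRBV5-6 began with tgtgccagcagc in 10173 of 11962 and 2108 of 2455 rows. The shorter start is the longer one without its first 2 bases. The largest CDR3 of TRBV5-5, with 64 counts in Rocket day -5, 15 in Rocket day -4, 9 in Amazo day -5 and 7 in Amazo day +3, is shown for its start. What sets the start point of TRBV5-5 was not tested.
TRBV5-5/TRBD2/TRBJ2-1, 46 bases: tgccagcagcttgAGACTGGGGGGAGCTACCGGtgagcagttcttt

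V genes differed widely in their share of out-of-frame rearrangements. Over the 57 V genes tested, the share ran from 2.19% to 95.6% of a gene's distinct CDR3, with a median of 6.26% and a middle range of 4.50% to 8.81%. Use of a gene, its share of the distinct CDR3 of a class, was compared between the classes with the quasi-likelihood test of edgeR and Benjamini-Hochberg adjustment over the 57 genes, with the repertoire as block. At an adjusted p below 0.05, 26 genes were called (45.6%), of which 9 were used more out of frame (15.8% of the genes tested) and 17 less (29.8%). With TRBV5-5 left out, 22 of 56 genes were called, 8 used more out of frame and 14 less. Fold changes are log2 ratios of out-of-frame over productive use, with the standard error (SE) of the fit, and n is 3 repertoires. Under TMM scaling, which raised the median over the 57 genes by 0.14 on the log2 scale, the split of 24 calls was 12 to 12. With fewer repertoires the calls thinned out, to 6 without repertoire 1 and 10 without repertoire 2.

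TRBV23-1 was used far more out of frame than in productive rearrangements. The human gene of that name is not counted among the functional V genes. TRBV23-1 was 20.9% of distinct out-of-frame CDR3 and 7.79% of productive ones. Of its own 18813 distinct CDR3, 2892 were out of frame (15.4%), 1364 of 8521 in repertoire 1, 1100 of 7851 in repertoire 2 and 428 of 2441 in repertoire 3. Over the 8 libraries its out-of-frame share was lowest in Nebula day -4 (11.6%), 15.3% at the median and highest in Rocket day -5 (18.5%). Its log2 ratio was 1.47 (SE 0.08, adjusted p = 1.42e-04, edgeR) and was 1.38 to 1.77 under all alternatives tried. An adjusted p of 0.0491 without repertoire 1 was the weakest of them. TRBV21-1, whose human counterpart is a pseudogene, showed no such excess. Of its 3620 distinct CDR3, 229 were out of frame (6.33%), with a log2 ratio of -0.05 (SE 0.15, adjusted p = 0.832, edgeR). TRBV1-1 and TRBV22-1, also without a functional human counterpart, had only 6 and 7 distinct CDR3, with 4 out of frame in each.

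TRBV5-5 had a log2 ratio of 8.503 (SE 0.46, adjusted p = 1.42e-04, edgeR), with the start point described above. With 238 out-of-frame and 8 productive CDR3, it passed the filter only through its out-of-frame columns. Its p-value is therefore no test of a difference in use. The highest shares after TRBV5-5 were found in V genes of rare use. TRBV18 had 109 out-of-frame CDR3 of 284, which was 49.6%, 27.2% and 36.2% in repertoires 1, 2 and 3. Its log2 ratio was 3.09 (SE 0.35, adjusted p = 0.00285, edgeR). TRBV16 had 84 of 271, which was 40.4%, 28.9% and 28.3%, with a log2 ratio of 2.74 (SE 0.30, adjusted p = 0.00285, edgeR). TRBV5-3 had 120 of 427, which was 35.0%, 22.9% and 9.43%, with a log2 ratio of 2.19 (SE 0.47, adjusted p = 0.0173, edgeR). The shares of TRBV18 and TRBV16 were at least 27.2% in each repertoire, while that of TRBV5-3 came near the rest in repertoire 3, and its call was lost without repertoire 1 (adjusted p = 0.185). Of productive CDR3 these genes were 0.0888%, 0.0951% and 0.154%. The remaining calls in this direction were TRBV6-6 (log2 ratio 1.54), TRBV7-5 (1.26), TRBV12-4 (0.94) and TRBV11-2 (0.68). TRBV6-6 rested on 24 out-of-frame CDR3 of 138, and 61.6% of its CDR3 had a second V hit (another gene or allele). Its log2 ratio was 2.97 with single hits only, 2.26 with at least 2 counts and 2.68 with counts in place of distinct CDR3, and its call was lost under DESeq2 (adjusted p = 0.0636) and, in edgeR, with no replicate block (adjusted p = 0.143), without repertoire 1 (0.116) and without repertoire 3 (0.0810).

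**Figure D2:**
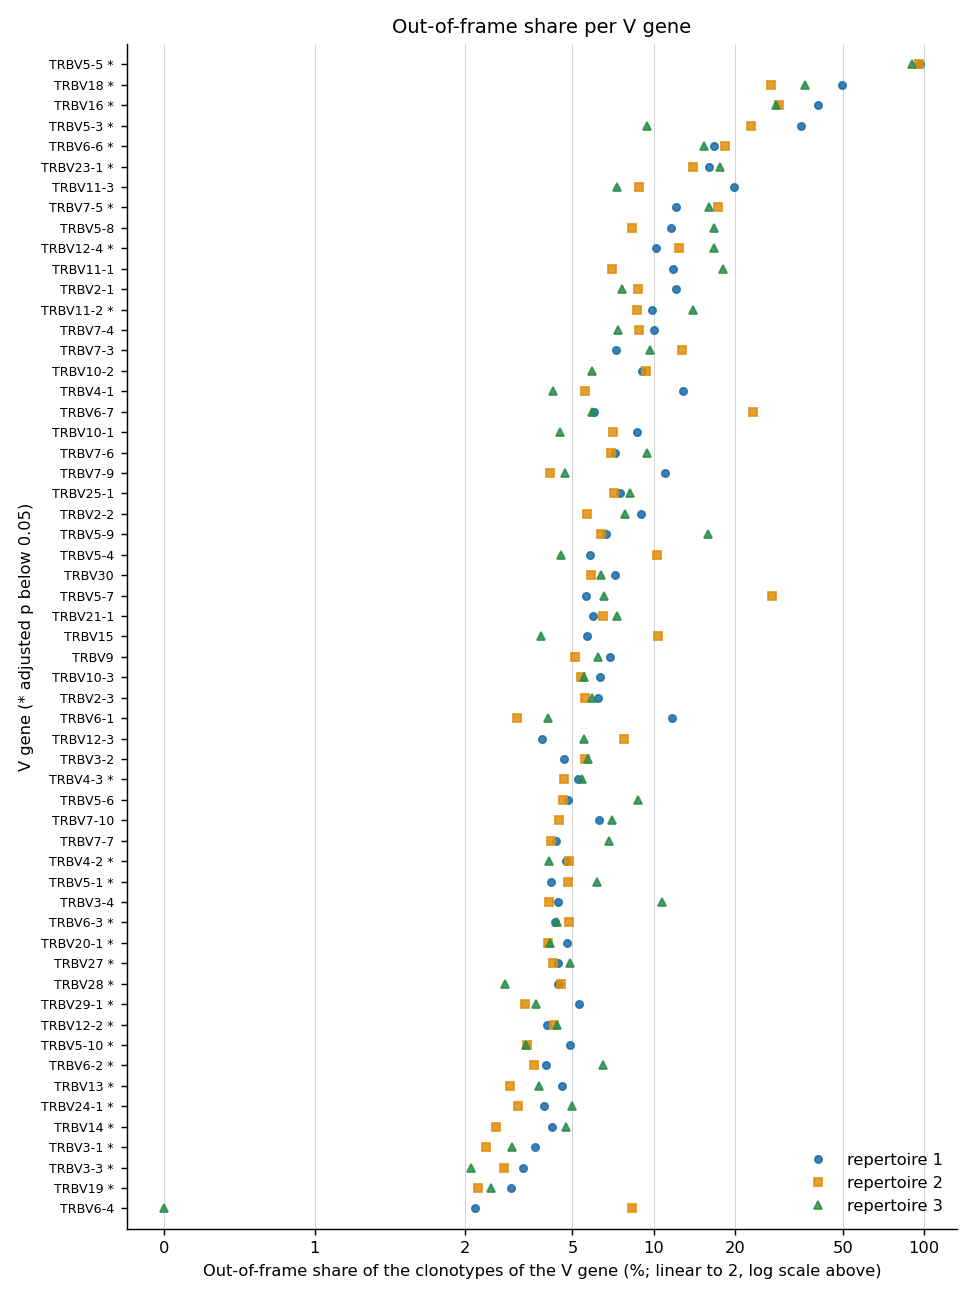
Out-of-frame share of the distinct CDR3 of each of the 57 tested V genes (x axis in percent, linear to 2 and logarithmic above), with 1 point per repertoire and genes ordered by their share over the 3 repertoires. TRBV5-5, TRBV18, TRBV16 and TRBV5-3 stand at the top and TRBV19, TRBV3-3 and TRBV3-1 near the foot.

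The largest called differences in the other direction were those of TRBV19, TRBV3-3 and TRBV3-1. TRBV19 had 99 out-of-frame CDR3 of 3764 (2.63%), with 2.97%, 2.24% and 2.49% in the repertoires and a log2 ratio of -1.46 (SE 0.17, adjusted p = 0.00285, edgeR). TRBV3-3 had 180 of 5998 (3.00%) and a log2 ratio of -1.33 (SE 0.17, adjusted p = 0.00433, edgeR). TRBV3-1 had 111 of 3557 (3.12%) and a log2 ratio of -1.23 (SE 0.19, adjusted p = 0.00847, edgeR). All 3 were lower in each repertoire. TRBV6-4 had a still lower share (3 of 137 CDR3, 2.19%), with too few for a call (adjusted p = 0.123, edgeR). The next called genes by size were TRBV14 (-0.91), TRBV13 (-0.89), TRBV24-1 (-0.85), TRBV5-10 (-0.82), TRBV29-1 (-0.78), TRBV28 (-0.74), TRBV12-2 (-0.73), TRBV20-1 (-0.68) and TRBV6-2 (-0.68). With counts in place of distinct CDR3, TRBV14 had -1.72, TRBV29-1 -1.91 and TRBV28 -2.01. The 5 called genes not named so far, TRBV27, TRBV6-3, TRBV4-2, TRBV5-1 and TRBV4-3, had log2 ratios of -0.63 to -0.44. All 17 were lower in each of the 3 repertoires. Of TRBV12-2, 51.8% of CDR3 had a second V hit.

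J genes differed less than V genes, by at most 1.48-fold, and most of them were called. J segments follow each other in a cluster after each D segment, and code for the end of the CDR3. Of the 13 J genes 10 were called by edgeR (76.9%), 4 used more out of frame (30.8%) and 6 less (46.2%). Spread was pooled over the 13 genes, so small p-values do not stand for more than 3 repertoires. TRBJ1-4 was 13.3% of out-of-frame and 8.93% of productive CDR3, and its out-of-frame share over the 8 libraries had a low of 6.69%, a median of 9.46% and a high of 13.4%. Its log2 ratio was 0.57 (SE 0.06, adjusted p = 2.34e-09, edgeR). TRBJ2-4 was 11.99% against 9.004% (log2 ratio 0.40, SE 0.06, adjusted p = 8.95e-07, edgeR), and TRBJ2-5 was 10.0% against 8.40% (0.25, SE 0.07, adjusted p = 0.00139, edgeR). All of these were higher in each repertoire.

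TRBJ1-3 changed sides with the long CDR3. With them, its log2 ratio was 0.48 (SE 0.08, adjusted p = 3.17e-06, edgeR) and higher in each repertoire. Without CDR3 of 100 bases or more it was -0.42 (adjusted p = 9.09e-06, edgeR), a call in the opposite direction. Of its 894 out-of-frame CDR3, 428 were long. The J genes used less out of frame were TRBJ2-7 (log2 ratio -0.44, 8.56% against 11.7% of CDR3), TRBJ2-1 (-0.44), TRBJ1-2 (-0.36), TRBJ2-6 (-0.31), TRBJ1-1 (-0.20) and TRBJ2-2 (-0.18). TRBJ2-3 (-0.01), TRBJ1-6 (-0.03) and TRBJ1-5 (-0.06) were not called, with SE of 0.06 to 0.08. A second J hit (another gene or allele) was listed for 83.9% of TRBJ1-6 and 80.9% of TRBJ2-1 CDR3. With counts in place of distinct CDR3, 1 of the 13 J genes was called, TRBJ1-3 (0.69, adjusted p = 5.75e-04, edgeR), and TRBJ2-7 had the opposite sign (0.11, adjusted p = 0.904, edgeR).

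**Figure D3:**
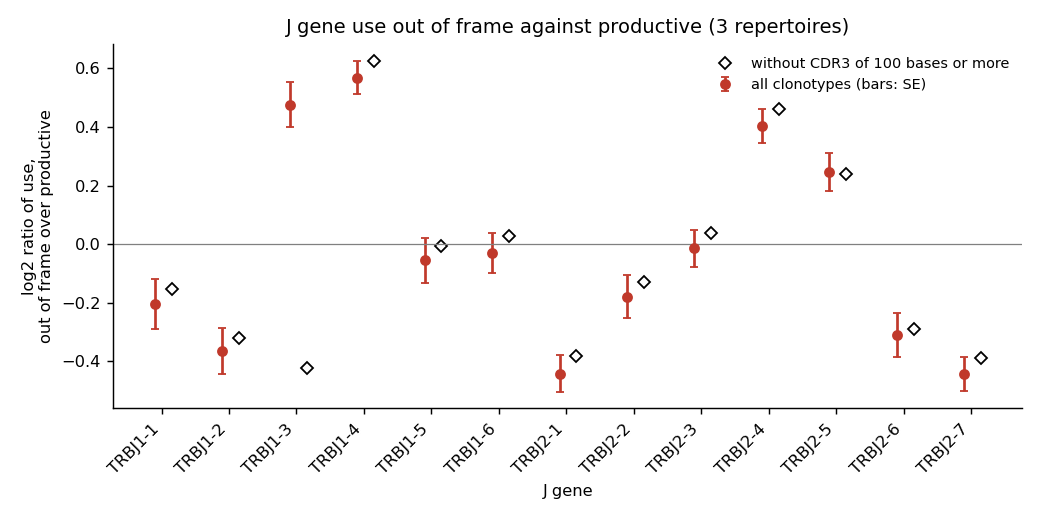
Log2 ratio of J gene use, out of frame over productive, for the 13 J genes in 3 repertoires (filled points with bars of 1 SE), and the same without CDR3 of 100 bases or more (open diamonds). TRBJ1-4 and TRBJ2-4 lie above 0 either way, whereas TRBJ1-3 goes from 0.48 to -0.42.

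Use of the single D genes is given as a description, without a test. TRBD1 was the D hit of 53.2% to 56.4% of out-of-frame and 49.7% to 51.6% of productive clonotypes over the 8 libraries, and TRBD2 of 19.2% to 25.8% and 22.1% to 25.9%. The ranges of TRBD1 did not overlap and those of TRBD2 did, over 8 libraries that are 3 repertoires. TRBD2 lies after the TRBJ1 cluster, so that a join of TRBD2 to a TRBJ1 gene is not made by the usual deletion. Such a pairing was called in 8.12% to 10.7% of out-of-frame and 8.82% to 9.81% of productive clonotypes with a TRBJ1 gene, ranges that overlapped. Any D hit was found for 77.8% ± 0.373 of distinct out-of-frame and 74.4% ± 1.09 of productive CDR3 (SD, n = 3 repertoires). The difference of 3.35 percentage points had the same sign in 3 of 3 repertoires, with an exact sign-flip permutation p of 0.25, the smallest 3 repertoires can give. It was 0.137 percentage points without the 3 recognised kinds, where 2 of 3 repertoires kept the sign, and TRBD1 alone was not computed without them.

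The CDR3 was longer and far more spread in length out of frame. Mean length was 47.2, 48.2 and 48.9 bases in repertoires 1, 2 and 3, against 43.5, 43.3 and 43.3 bases for productive CDR3. The means over repertoires were 48.1 ± 0.848 and 43.4 ± 0.0857 bases (SD, n = 3), a difference of 4.73 bases with the same sign in 3 of 3. The standard deviation of length was 18.2, 18.9 and 21.3 bases out of frame and 5.22, 5.30 and 5.42 bases productive. The exact sign-flip permutation p was 0.25 for both, the smallest it can give. With the 8 libraries as replicates, which counts shared clones again, it was 0.00781 for both. Much of this lay in the long CDR3, and part of that is set by how the classes are defined. The productive class leaves out in-frame CDR3 with a stop codon, of which 1492 distinct ones had 100 bases or more. That long were 5 distinct productive and 509 distinct out-of-frame CDR3. Without CDR3 of 100 bases or more in either class, the mean differed by 1.05 bases and the standard deviation by 1.56 bases. Both were still higher out of frame in 3 of 3 repertoires. The median was 44 bases out of frame in each of the 8 libraries and 42 bases productive, or 45 in Rocket day -5.

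**Figure D4:**
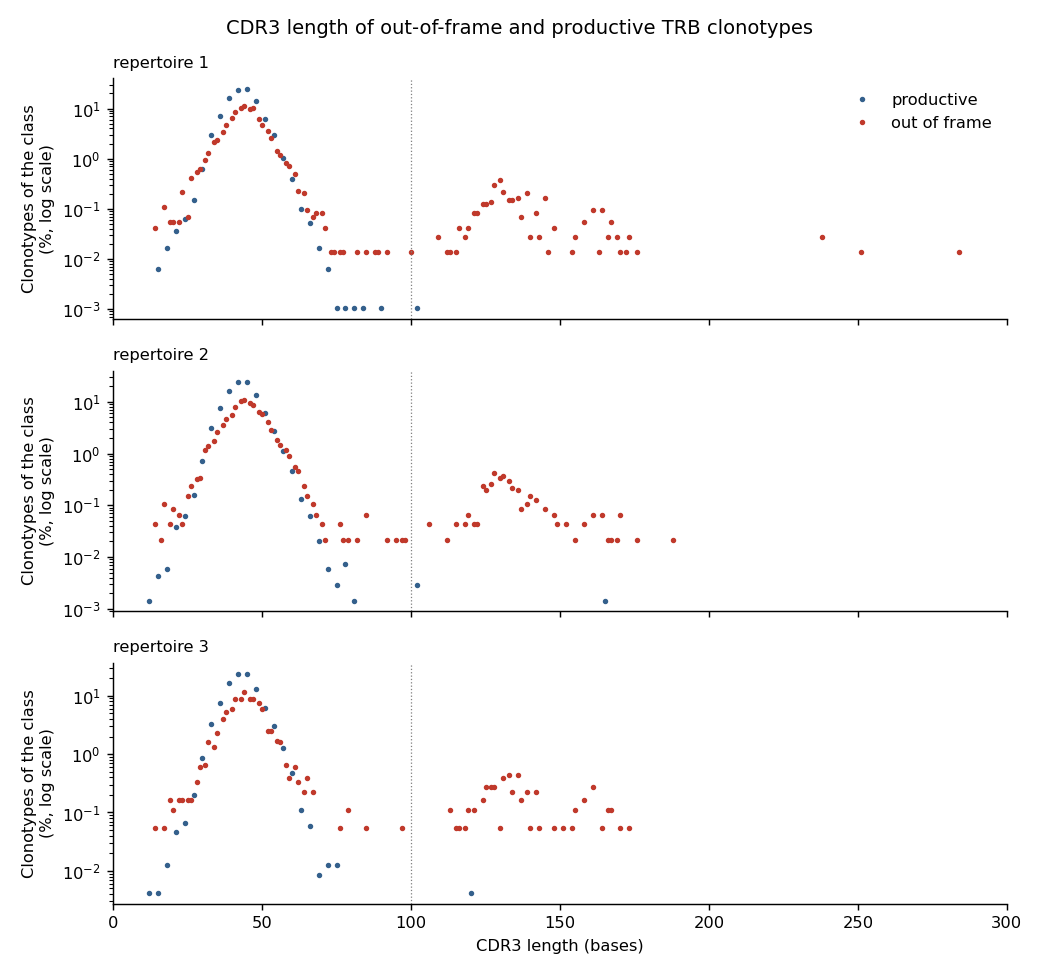
Percent of the distinct CDR3 of a class (log scale) at each CDR3 length in bases, for the 3 repertoires, with productive CDR3 at multiples of 3 and out-of-frame CDR3 between them. The dotted line is at 100 bases. A second group of out-of-frame CDR3 lies to its right, with few productive ones. In-frame CDR3 with a stop codon, many of them that long, belong to neither class and are not drawn.

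Lengths left 1 base over in 6988 out-of-frame rows (48.7%) and 2 bases over in 7370 (51.3%). Rows that also showed a stop codon in the deposited translation numbered 2084 (14.5%). Between the V end and the J start lay 17.9 ± 0.979 bases out of frame and 13.2 ± 0.174 bases in productive CDR3 (SD, n = 3 repertoires). The difference was 4.76 bases and 1.28 bases without the long CDR3. V segments had lost 3.08 ± 0.0822 bases out of frame and 2.84 ± 0.113 bases in productive CDR3 (SD, n = 3 repertoires), a difference of 0.242 bases with the same sign in 3 of 3 and in 8 of 8 libraries. J segments had lost 4.13 ± 0.114 and 4.19 ± 0.127 bases (SD, n = 3 repertoires). The last difference (-0.0620 bases) was smaller than its spread between repertoires (SD 0.104), with an exact sign-flip permutation p of 0.5, and was 0.109 bases in the other direction without the long CDR3. The exact sign-flip p of the others was 0.25.

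Out-of-frame clonotypes had fewer counts each. The mean was 14.3 against 35.0 counts per clonotype in Rocket day -5, 4.12 against 7.46 in Rocket day -4, 5.57 against 10.3 in Amazo day -5 and 6.32 against 12.7 in Amazo day +3. It was 10.3 against 14.4 in Nebula day -5, 2.07 against 2.37 in Nebula day -4 and 6.57 against 8.65 in Nebula day 0. It was 10.98 against 15.5 in Amazo day -4. The out-of-frame mean was lower in each of the 8 libraries, at 0.408 to 0.871 of the productive mean. As a log2 ratio it was -1.01, -0.36 and -0.50 in repertoires 1, 2 and 3, with a mean of -0.62 (SD 0.34, n = 3, exact sign-flip permutation p = 0.25, the smallest it can give). Polyadenylated RNA was sequenced, so fewer cells of a clone and less RNA per cell cannot be told apart.

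Medians lay closer together than means. The median was 2 to 12 counts out of frame and 2 to 13 productive, with ratios of 0.75 to 1. The class with 1 count was larger out of frame, at 20.8% to 28.2% against 8.58% to 15.9% in 7 libraries and 46.5% against 42.4% in Nebula day -4. Among out-of-frame clonotypes of none of the 3 recognised kinds it was 11.4% to 18.6% in the same 7 libraries. Part of this fall is set by the definition of the first kind, which favours rows with few counts. Above 1 count, the most common number of counts was 15 out of frame and 13 productive in Rocket day -5, 12 and 9 in Amazo day -4, 13 and 12 in Nebula day -5, and 8 and 7 in Nebula day 0. It was 2 in both classes in Nebula day -4, 4 in both in Amazo day -5, 5 and 6 in Amazo day +3, and 2 and 3 in Rocket day -4. The mode was thus the same or higher out of frame in 6 of 8 libraries. Without clonotypes of at least 0.1% of their library, in either class, the log2 ratio of the means was -0.29.

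**Figure D5:**
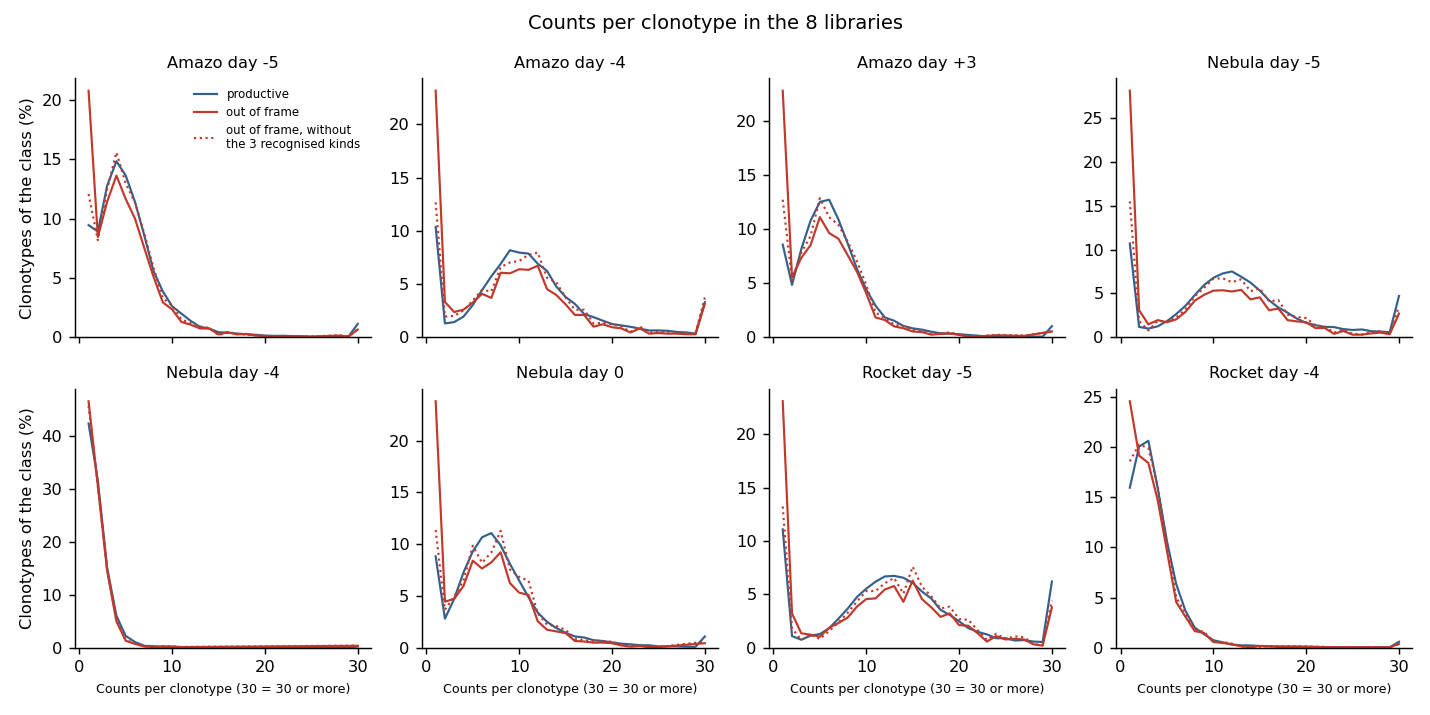
Percent of the clonotypes of a class at each number of counts per clonotype in the 8 libraries (30 stands for 30 or more), for productive clonotypes, out-of-frame clonotypes and out-of-frame clonotypes of none of the 3 recognised kinds (dotted). The curves of the classes peak at similar counts, and the largest gap is at 1 count.

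Few out-of-frame clonotypes were seen again. Of those of a library, 2.28% to 5.71% were found in another library of the same repertoire (18 ordered pairs, median 4.25%), against 4.73% to 11.6% of productive clonotypes (median 7.10%). Of the rows 1 base from a larger productive clonotype, a median of 1.54% were found again, and of those of none of the 3 kinds a median of 4.70%. Between libraries of different repertoires 0% to 0.476% of out-of-frame clonotypes were shared (38 ordered pairs, median 0.124%), against 0.0989% to 1.08% of productive clonotypes (median 0.277%). No out-of-frame CDR3 was found in all 3 repertoires, whereas 43 productive CDR3 were. The productive class held 188274 distinct CDR3 and the out-of-frame class 13828, so it offers more sequences that can match between repertoires. Single counts were also more frequent out of frame, and a clonotype with 1 count is harder to see again. The percentages were not adjusted for class size or counts, so they do not show which class is shared more readily.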

How the data were processed

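TRB libraries had been made from RNA of blood cells by template switching and PCR, and were read paired-end on a MiSeq. After trimming in Trimmomatic, the authors called clones in MiXCR at default settings against known rhesus TRB segments (versions and genome build not given in the sources used here). The deposited count per clonotype is a whole number and is not normalized. The deposited clone fraction is that count divided by the total of the library. The deposited score used here is the lowest base quality in the CDR3. The study describes collapsing of molecular barcodes and a minimum clone fraction, but the tables hold clones far below it and no barcode column. Total counts ran from 42695 to 556954 after infusion.

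A clonotype was a distinct CDR3 nucleotide sequence, with the first V, D and J hit. Libraries with a Morisita-Horn index above 0.5 were joined as 1 repertoire, each CDR3 counted once. Numbers of distinct CDR3 per gene were tested with edgeR 4.0.16 (quasi-likelihood test, total scaling, at least 10 in at least 3 of 6 columns, repertoire block) and single values by exact sign-flip permutation. The 2 classes of a repertoire came from the same libraries, and this pairing is the replicate block. On simulated V gene tables (57 genes, 20 changed 2-fold) the edgeR test recovered 90.0% of the changed genes and called 1.96% of the others. The simulated spread was a fixed value, the same for every gene and not estimated from these data. These rates therefore hold for that spread only and may not hold for the real genes. Confidence intervals are 95% Wilson intervals. V genes named were those called with 1 direction in each repertoire (up to 12 each way by size), those with the highest and lowest 3 out-of-frame shares and those not functional in human. The 5 further called genes were named beside them. All J and D genes were named, and the 3 largest out-of-frame clonotypes of each repertoire. Members and lists were chosen with earlier results of these data known. The 4 baseline libraries (280 counts in all) entered no comparison. Versions were R 4.3.3, DESeq2 1.42.0, Python 3.11.15, numpy 2.4.6, pandas 2.3.3, scipy 1.17.1 and matplotlib 3.10.9.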

Additional observations from a re-analysis of the deposited data

Results flagged for a closer look

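The baseline libraries entered no comparison, and 1 of the 4 held more out-of-frame counts than the 3 that a count of 0 allows for. In baseline library 2, 10 of 63 counts were out of frame, in 6 of 43 clonotypes (15.9% of counts, 95% Wilson interval 8.86 to 26.8). The others held 2 of 73, 0 of 74 and 2 of 70 counts. For the 0 of 74, a share of up to 4.05% is allowed.

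In-frame clonotypes with a stop codon also lay outside the comparisons, and 1492 distinct CDR3 of that class had 100 bases or more. Of these, 1481 ended in TRBJ1-3 and 921 carried TRBV23-1. An inner J end stood in 1383, before the final J gene in each of the 1383, and 1368 of them were in frame up to the end of the inner J. Among the 509 long out-of-frame CDR3, 271 carried TRBV23-1.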

How the results depend on the processing

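Of 26 V gene calls, 20 to 26 were shared with the main setting under DESeq2 (21 calls), TMM (24), no filter (27) and each library as a replicate (38). The count was 8 with no replicate block, 11 with counts in place of distinct CDR3 and 6 to 21 without each repertoire in turn. For J genes it was 6 with no replicate block, 1 with counts in place of distinct CDR3 and 5 to 8 without each repertoire, against 10. Fewer samples are left in the last setting, and the cause was not tested for the others. With each library as a replicate, 6 single values passed at an exact p of 0.00781, namely D hits (2.84 percentage points), mean length (4.32 bases), SD of length (13.4 bases), bases between V and J (4.39), V bases trimmed (0.263) and counts per clonotype (-0.70 on the log2 scale). J bases trimmed turned to 0.109 without long CDR3 and 0.0191 without all 3 kinds. The share of counts at day -4 minus day -5 was -0.679 to 0.629 percentage points without each animal name. With no replicate block the exact permutation p was 0.1 for length and 0.3 for counts per clonotype, which stayed above the threshold. Apart from the 6 with each library as a replicate, no single value changed its side of the threshold under any setting.

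Of 31 named genes that were called, 28 kept their direction under every setting. TRBJ1-3 turned to -0.42 without long CDR3 and -0.41 without all 3 kinds. TRBJ1-1 (0.10) and TRBJ2-7 (0.11) turned with counts in place of distinct CDR3. Named genes that were not called turned as follows, and of these turned values that of TRBJ1-6 without all 3 kinds passed the threshold (adjusted p = 0.0202, edgeR). TRBV21-1 was 0.083 with TMM, 0.014 with at least 2 counts and -0.11 to 0.068 without each repertoire. TRBJ2-3 was 0.047 with TMM, 0.037 without long CDR3, 0.068 without all 3 kinds and -0.042 to 0.020 without each repertoire. TRBJ1-6 was 0.037 with TMM, 0.098 without neighbours of larger productive clonotypes, 0.38 with counts, 0.029 without long CDR3 and 0.19 without all 3 kinds. TRBJ1-5 was 0.0068 with TMM and 0.051 without all 3 kinds. Settings without long CDR3, TRBV5-5 or all 3 kinds were chosen after seeing the data. In Nebula day -4, 1 count is 0.00234% of the library, so smaller clonotypes could not be seen there.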
